A study of Bos taurus with 18 samples.

Results

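Oxygen sensing in animal cells runs through the hypoxia-inducible factors (HIFs), transcription factors made of an oxygen-regulated alpha subunit, encoded by HIF1A or EPAS1, and a constant partner, ARNT. The prolyl hydroxylases encoded by EGLN1, EGLN2 and EGLN3 mark the alpha subunits when oxygen is present, and the VHL protein then directs the marked subunits to the proteasome, while HIF1AN hydroxylates an asparagine and so blocks the recruitment of coactivators. When oxygen is short the alpha subunits persist and raise transcription of targets such as CA9, ADM and EGLN3 itself. The granulosa and cumulus layers of a follicle have no blood vessels and receive oxygen by diffusion, and much of HIF control acts on protein, which these arrays do not measure.

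These 10 genes (EGLN1, EGLN2, EGLN3, HIF1AN, HIF1A, EPAS1, ARNT, VHL, CA9 and ADM) were described in bovine cumulus cells, the somatic cells around the oocyte. All their probes were taken by the gene symbol of the platform annotation, which gave 17 of the 43794 gene probes, and 10 of the 15216 genes with a symbol. Of these, 8 genes and 13 probes passed the filter on dim probes, out of 11044 genes and 27381 probes in all. The probes of ARNT and VHL, and 2 of the 3 probes of CA9, did not pass. No probe or genome sequence was at hand, so members are described by gene and probe number only.

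The cells came from 6 Holstein cows aged 4 years on average, each put through all 4 conditions in a randomised order, 24 collections in all. After removal of the dominant follicle 36 h earlier, every cow received FSH, which drives follicle growth, as 6 doses of 40 mg every 12 h over 3 days during the luteal phase. FSH was then withheld for 20, 44, 68 or 92 h (coasting) before the follicles were aspirated. Each of 18 dual-channel arrays set RNA of 44, 68 or 92 h against RNA of 20 h, with 3 replicates per longer time and both dye orientations of each replicate. Follicles of 3 to 5 mm supplied the 20 h cells, those of 6 to 8 mm the 44 and 68 h cells, and those above 8 mm the 92 h cells, so that time without FSH and follicle size cannot be told apart in any comparison with 20 h or between 92 h and the other times. Between 68 and 44 h the labelled size is equal. Neither the oxygen tension of the follicles nor the cows behind each replicate is given in the labels, so the p-values below measure only the spread between these samples. All comparisons use 20 h RNA as their control. In bulk RNA, fewer cells of a type and less RNA per cell cannot be told apart.

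Between 44.3 and 68.7% of gene probes were above background in Cy3 and between 26.5 and 58.9% in Cy5. Log2 ratios correlated across genes between replicates with r between 0.42 and 0.68 at 92 h, and between 0.14 and 0.49 at 68 h. At 44 h, r was 0.03 for replicates 1 and 2, 0.18 for 1 and 3, and -0.18 for 2 and 3, so the 44 h replicates stood apart from each other. The median SD over the 3 replicates of a gene was 0.14 at 92 and 68 h and 0.22 at 44 h, on the log2 scale. Slides carried 92 h arrays alone (2 slides), 68 h arrays alone (1 slide) or both 44 and 68 h arrays (2 slides), so slide and time cannot be told apart for 92 h except through the 20 h channel of each array. Of the 12 cumulus and granulosa markers, 11 were above background on most 20 h arrays.

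EGLN3 was the only member gene past the threshold, an adjusted p of 0.05 in limma with Benjamini-Hochberg adjustment over 11044 genes, in any comparison. It fell at 92 h and was below its 20 h level in every replicate of every time. At 92 h, 1 of the 8 measured members passed, against 256 of 11044 genes (2.32%), and 119 genes (1.08%) were called in the lower direction. At 68 h no member passed and no gene of the 11044 did (0%), with 1217 genes at an unadjusted p under 0.05. At 44 h the same counts were 0 members and 0 genes (0%), with 1057 genes at an unadjusted p under 0.05. By probe, 1 of 13 member probes passed at 92 h, against 355 of 27381 (1.3%), and none passed at 68 or 44 h (0% of probes in either case). The median log2 ratio of the 8 members was -0.12 at 92 h, 0.00 at 68 h and 0.01 at 44 h, and that of all tested genes was -0.001, -0.002 and -0.003. The 3 replicates had 1 sign in 5 of the 8 members at 92 h, in 3 at 68 h and in 4 at 44 h. Over all genes that share was 45.9%, 42.9% and 25.6%.

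**Figure D1:**
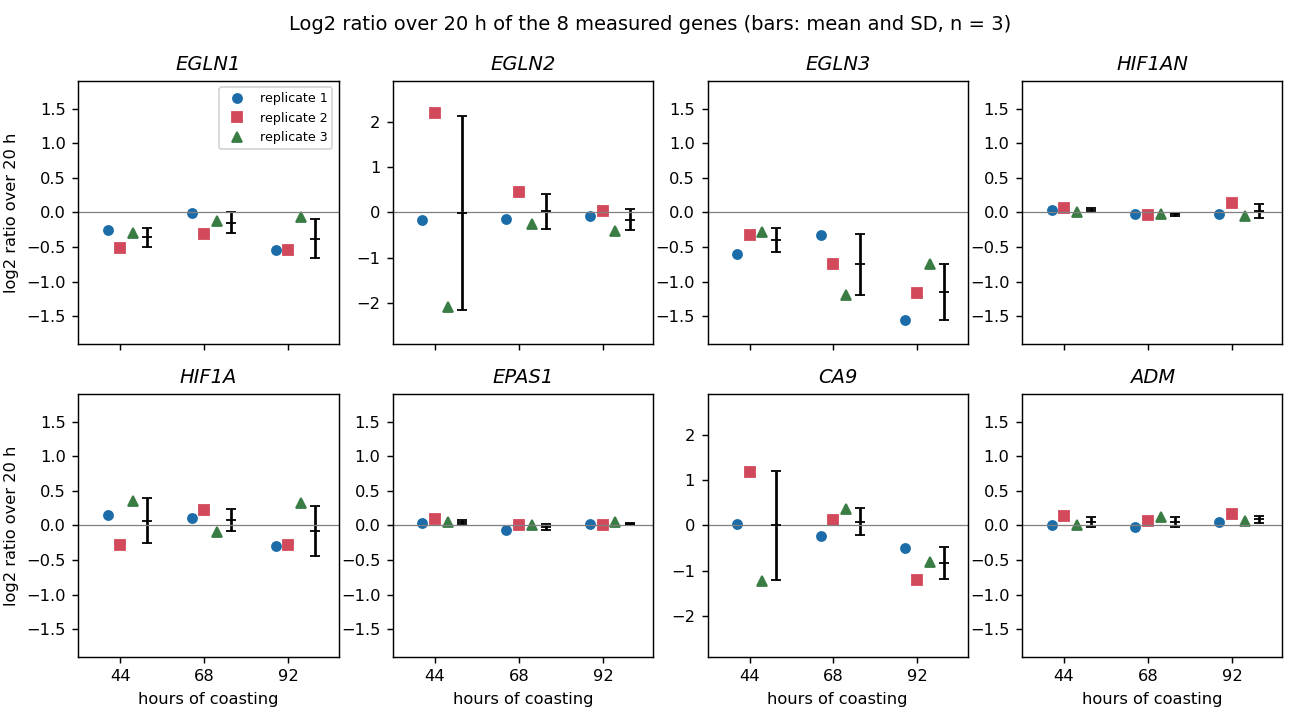
Log2 ratio over 20 h (vertical axes) at 44, 68 and 92 h of coasting (horizontal axes) for the 8 genes that passed the filter, each by its brightest probe. Symbols are the 3 replicates, each the mean of its 2 dye orientations, bars are the mean and SD, and EGLN2 and CA9 have a wider vertical axis. EGLN3 lies below 0 at all times, EGLN2 and CA9 spread widely at 44 h, and HIF1AN, EPAS1 and ADM stay near 0.

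EGLN3 encodes the prolyl hydroxylase PHD3, itself a HIF target. Its single probe was above background in both channels of all 18 arrays. At 92 h its log2 ratios over 20 h were -1.55, -1.17 and -0.74, at 68 h they were -0.32, -0.75 and -1.20, and at 44 h they were -0.60, -0.32 and -0.28. All 9 values were below 0, and so were the ratios of all 18 single arrays. The mean at 92 h was -1.15 ± 0.41 (SD, n = 3), a 2.22-fold decrease with a 95% interval from -1.60 to -0.70 on the log2 scale (limma, adjusted p = 0.0349). By p-value it ranked 161 of 11044 genes at 92 h. With every kept probe tested separately, the adjusted p was 0.0456. The means at 68 h (-0.75 ± 0.44, limma adjusted p = 0.240) and 44 h (-0.40 ± 0.17, limma adjusted p = 0.576) did not pass. The call at 92 h was lost on leaving out any 92 h replicate (limma adjusted p = 0.180, 0.178 and 0.0572 without replicates 1, 2 and 3), 68 h replicate 2 (0.0505) or 44 h replicate 1 (0.0567). It was also lost with the 92 h values alone, where the smaller 44 h SD (0.17) no longer enters the variance. The replicate block over the 9 values ended it too (limma adjusted p = 0.0893), as did the other settings listed in the closing section. The ratio stayed between -1.46 and -0.91 throughout.

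The decrease appeared in both dye orientations. With the 92 h RNA in Cy5 the 3 ratios ran from -1.80 to -0.97, and with it in Cy3 from -1.30 to -0.51, so the Cy5 arrays gave the lower ratio in each replicate. Raw spot intensity on the 92 h arrays was 829.8 to 1582 in the 92 h channel and 1855 to 3852 in the 20 h channel, with no overlap. Channel brightness after normalization was 10.09, 9.95 and 10.34 (log2) in the 92 h samples, 10.62, 10.11 and 10.33 at 68 h and 10.90, 10.65 and 10.67 at 44 h. Over the 9 values of 20 h it ran from 10.86 through a median of 11.08 to 11.64. The 92 h levels therefore lay below all 44 h and 20 h levels and overlapped those of 68 h, and the 44 h and 20 h levels overlapped. The share of all genes without overlap, in raw or normalized levels, was not counted. The 92 h arrays were also on slides of their own, so levels of different times carry slide differences. The 3 highest 20 h levels, 11.50, 11.53 and 11.64, were on the arrays of 44 h replicate 1, 68 h replicate 3 and 92 h replicate 1, and in each time that replicate had the lowest ratio. The part of the 20 h samples in this spread was not tested.

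The differences between the longer times, taken through 20 h, passed for no member. No gene passed either (0% of 11044 for 92 against 68 h, for 92 against 44 h and for 68 against 44 h), with 656, 857 and 596 genes at an unadjusted p under 0.05 in limma. For EGLN3 the 92 h ratio was lower than that of 44 h by a difference of -0.75, with an interval from -1.39 to -0.11 (unadjusted p = 0.0272, limma adjusted p = 0.556). The difference from 68 h was -0.40, with an interval from -1.04 to 0.24 (limma adjusted p = 0.946), and that of 68 from 44 h was -0.35, from -0.99 to 0.29 (limma adjusted p = 0.999). Single replicates moved both: that from 68 h was -0.20 and -0.60 without 92 h replicates 1 and 3, and -0.18 and -0.62 without 68 h replicates 1 and 3. The difference of 68 from 44 h was -0.57 without 68 h replicate 1 and -0.13 without 68 h replicate 3. On the slides shared by 44 and 68 h, the 68 h array (replicate 3) gave -0.96 and -1.43 and the 3 arrays of 44 h averaged -0.15 and -0.65, in Cy3 and Cy5 orientation. The F-test over the 3 longer times passed for 74 genes (0.67%) and for no member, with EGLN3 at an adjusted p of 0.0624 in limma.

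**Figure D2:**
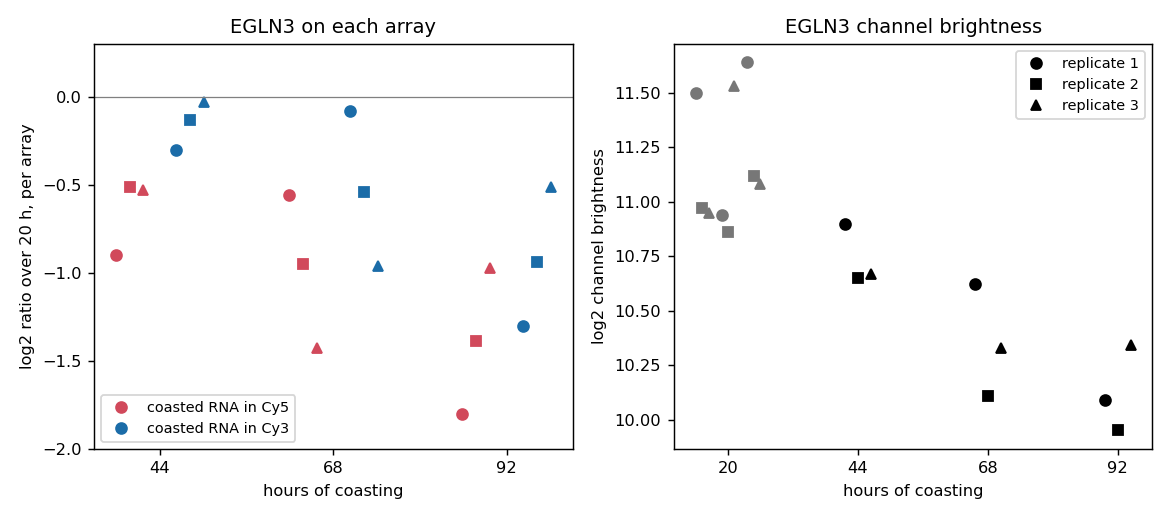
EGLN3 against hours of coasting. Left, log2 ratio over 20 h on each of the 18 arrays by dye of the coasted RNA. Right, log2 channel brightness of each replicate, with the 9 grey symbols at 20 h placed from left to right by the 44, 68 and 92 h arrays they were measured on; circles, squares and triangles are replicates 1, 2 and 3 in both panels. All 18 ratios are below 0, and the 92 h levels (9.95 to 10.34) lie below those of 44 h (10.65 to 10.90), which were measured on other slides.

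By the rule for likeness, the Pearson correlation over the 9 replicate ratios, the 5 genes most like EGLN3 were SQLE (r = 0.98), NAP1L5 (0.949), IDI1 (0.941), FAM13A (0.937) and SLC16A1 (0.887). SQLE and IDI1 encode enzymes of sterol synthesis, and SLC16A1 the monocarboxylate transporter MCT1. Their mean log2 ratios at 92 h were -1.33, -0.80, -1.13, -0.55 and -1.13 in that order. Only SLC16A1 of these 5 passed at 92 h (limma adjusted p = 0.0238). The 9 values may share 20 h RNA, so these correlations are descriptions.

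EGLN1 encodes PHD2, the main HIF prolyl hydroxylase under normal oxygen. Its brighter probe gave log2 ratios of -0.55, -0.54 and -0.06 at 92 h, of -0.01, -0.31 and -0.12 at 68 h and of -0.26, -0.52 and -0.30 at 44 h. All 9 values were at or below -0.01, and 16 of 18 single arrays were below 0. The mean was -0.38 ± 0.28 at 92 h (interval -0.64 to -0.13, limma adjusted p = 0.122), -0.15 ± 0.15 at 68 h (adjusted p = 0.670) and -0.36 ± 0.14 at 44 h (adjusted p = 0.334), so no time passed. Its second probe gave means of -0.27, -0.08 and -0.35, with 92 h replicate 3 at 0.03 and 68 h replicate 1 at 0.05. Channel brightness of the first probe was 10.21, 10.21 and 10.69 at 92 h, all below the lowest of the 9 values of 20 h (10.75), while that of 44 h (10.49 to 10.81) overlapped them. The share of all genes with such a gap was not counted. The 20 h channel was itself lower on the 92 h arrays (10.75 to 10.76) than on the other arrays (10.94 to 11.11). The second probe, at 9.42, 9.14 and 9.59 at 92 h, overlapped its 20 h range (lowest 9.55). Differences between the longer times for EGLN1 ran from -0.24 to 0.22, with intervals that include 0 (smallest limma adjusted p = 0.941).

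EGLN2 encodes PHD1, the remaining prolyl hydroxylase. It had 1 probe, and its values at 44 h were the most divergent among the members. Its log2 ratios at 44 h were -0.16, 2.19 and -2.08, so replicate 2 was far above 20 h and replicate 3 far below, with a mean of -0.01 ± 2.14 (limma adjusted p = 0.999). Only 20 of 11044 genes (0.181%) had an SD at 44 h as large as that of EGLN2. Both orientations gave the same picture: replicate 2 read 1.97 and 2.42, and replicate 3 read -2.43 and -1.74. Raw intensity of the coasted channel was 23220 and 24570 in replicate 2 and 1347 and 1522 in replicate 3, while the 20 h channel of the 44 h arrays stayed between 5129 and 7579. Without replicate 2 the 44 h mean was -1.12, and without replicate 3 it was 1.02. At the other times the values were close to 0, with -0.08, 0.02 and -0.42 at 92 h (mean -0.16 ± 0.23, limma adjusted p = 0.950) and -0.14, 0.45 and -0.26 at 68 h (mean 0.02 ± 0.38, limma adjusted p = 0.993). Because the variance is pooled over times, the spread at 44 h widened the 92 h interval to -1.73 to 1.42.

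CA9 shared this split at 44 h. It encodes carbonic anhydrase IX, a cell surface enzyme of pH control and a classical HIF target. Its measured probe gave 0.03, 1.18 and -1.22 at 44 h (mean 0.00 ± 1.20, limma adjusted p = 1.00) and -0.23, 0.11 and 0.36 at 68 h (mean 0.08 ± 0.30, adjusted p = 0.955). At 92 h it gave -0.49, -1.20 and -0.81, all below 0 and on 6 of 6 arrays. The 92 h mean was -0.83 ± 0.36, a 1.78-fold lower level that did not pass (interval -1.76 to 0.10, limma adjusted p = 0.331). As for EGLN2, the pooled variance behind this interval includes the 44 h spread (SD 1.20). With the 92 h values alone, however, CA9 did not pass either. Channel brightness of this probe at 92 h, 9.62, 9.21 and 9.03, overlapped the range of 20 h, 9.52 to 10.41. The other 2 CA9 probes were above background on 1 of 18 and 0 of 18 arrays in the 20 h channel and on none in the coasted channels, so only 1 of 3 probes supplied a measured ratio, and no fold is given for the others.

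Opposite moves of 44 h replicates 2 and 3 extended beyond the members: 136 of 11044 genes (1.23%) were above 1 in replicate 2 and below -1 in replicate 3. Examples, chosen after their values were seen, were the lactate exporter SLC16A3 (1.52 and -2.68), the glucose transporter SLC2A1 (1.21 and -1.68), and the granulosa genes AMH (1.42 and -2.31) and HSD17B1 (1.72 and -2.78). What set these 2 replicates apart was not tested.

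**Figure D3:**
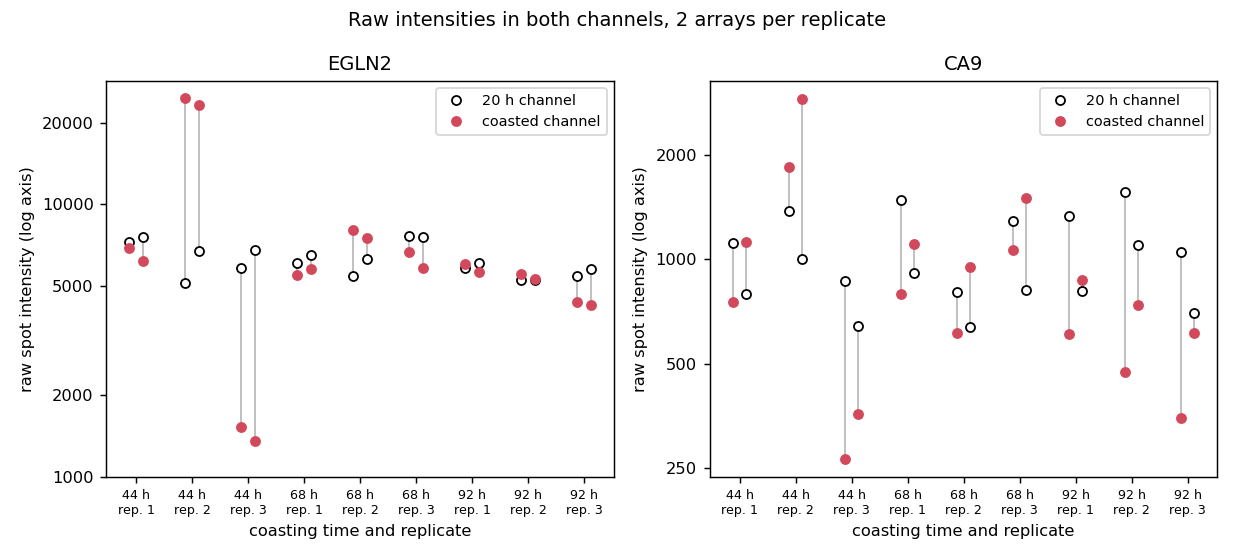
Raw spot intensity (log axis) of EGLN2 and of the measured CA9 probe for each replicate. Open circles are the 20 h channel and filled circles the coasted channel of the same array; of the 2 arrays per replicate, that with coasted RNA in Cy5 is on the left. For EGLN2 the coasted channel of 44 h replicates 2 and 3 lies at 23220 to 24570 and 1347 to 1522, around a 20 h channel of 5129 to 7579.

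HIF1AN encodes the asparaginyl hydroxylase FIH. Its brighter probe stayed close to 0, with -0.02, 0.14 and -0.05 at 92 h, -0.02, -0.04 and -0.02 at 68 h and 0.04, 0.06 and 0.00 at 44 h. The means were 0.02 ± 0.10, -0.03 ± 0.02 and 0.03 ± 0.03 (limma adjusted p = 0.876, 0.854 and 0.891), and the 92 h interval ran from -0.08 to 0.12. Raw intensity was 140.7 to 367.3, and dim probes have compressed ratios. The second probe, above background on 7 of 18 arrays in the 20 h channel, gave means from -0.03 to 0.04.

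HIF1A encodes the HIF-1 alpha subunit, and its 3 probes, all above background on all arrays, did not agree at 92 h. The brightest gave -0.30, -0.29 and 0.33, with a mean of -0.08 ± 0.36 (limma adjusted p = 0.868). It read 20660 to 37030 in raw intensity, at percentile 99.2 of its array or higher, where ratios can be compressed. Over the 18 arrays its Cy5 signal kept between 32270 and 37030 whichever sample it held, and its Cy3 signal between 20660 and 36020. This probe stood for HIF1A in the tests by gene, so its ratios near 0 say little. The next gave -0.67, -0.62 and 0.46 (mean -0.27 ± 0.64) and the dimmest -0.85, -1.06 and -0.21 (mean -0.71 ± 0.44). The dimmest was thus below 0 in all 3 replicates and on 6 of 6 arrays, yet did not pass over all probes (unadjusted p = 0.00902, limma adjusted p = 0.141). In each probe, 92 h replicate 3 was the highest of the 3 replicates. At 68 h the 3 probes had means of 0.08, 0.04 and -0.15, and at 44 h of 0.07, 0.23 and -0.21. Which transcript forms the probes match was not analysed here.

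EPAS1 encodes HIF-2 alpha, the other oxygen-regulated subunit. Its probe was close to background, above it on 6 of 18 arrays at 20 h, 1 of 6 at 92 h, 2 of 6 at 68 h and 4 of 6 at 44 h, and it passed the filter only through the 44 h arrays. Its ratios ran from -0.06 to 0.09 over the 9 values (limma adjusted p = 0.774, 0.869 and 0.647 at 92, 68 and 44 h), on a scale compressed by the low signal. ARNT, the common partner, exceeded background in the 20 h channel of 4 of 18 arrays, in 1 of 6 channels of 68 h and in none of 92 or 44 h. VHL, the substrate receptor of the ubiquitin ligase that recognises hydroxylated alpha subunits, exceeded it in the 20 h channel of 1 of 18 arrays and in no channel of the longer times. Both are therefore bounded by the detection limit, and no fold is given. Single arrays of ARNT at 92 h followed the dye, at -0.31 to -0.07 with the 92 h RNA in Cy5 and 0.25 to 0.46 in Cy3.

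ADM encodes adrenomedullin, a secreted peptide whose gene is a HIF target. Its 2 probes were dim and differed in size. The brighter one gave 0.05, 0.16 and 0.07 at 92 h, a mean of 0.09 ± 0.05 (limma adjusted p = 0.312), and means of 0.05 at both 68 and 44 h. The second gave 0.30, 0.67 and 0.25 at 92 h, with a mean of 0.41 ± 0.23 that did not pass over all probes (limma adjusted p = 0.0535). At 68 h it gave 0.08, 0.10 and 0.10 and at 44 h 0.00, 0.08 and 0.02. It was above background on 6 of 6 arrays at 92 h, 4 of 6 at 68 h, 2 of 6 at 44 h and 6 of 18 at 20 h, so it passed the filter through its coasted channels alone. Most of its 20 h signals were at the detection limit, so the ratio is no exact difference and its p is given only for completeness.

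**Figure D4:**
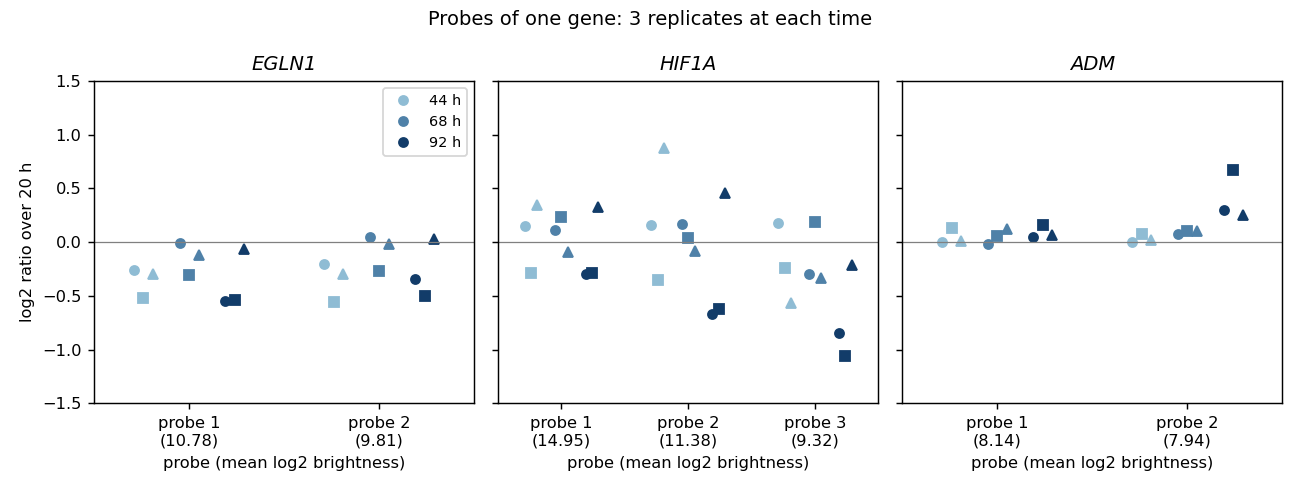
Log2 ratio over 20 h of each probe of EGLN1, HIF1A and ADM that passed the filter, ordered by mean log2 brightness (in brackets). Circles, squares and triangles are replicates 1, 2 and 3, and shades are the times. The HIF1A probes separate at 92 h, with means of -0.08, -0.27 and -0.71, and the second ADM probe reads 0.25 to 0.67 at 92 h where the first reads 0.05 to 0.16.

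Other genes of the pathway were read from lists. Of the partners and regulators of HIF, 14 of 20 passed the filter. At 92 h 1 of them fell past the threshold and none rose past it, with a median of 0.05, and 4 of 14 were below 0. The gene that fell was ELOC, elongin C, which joins VHL to its ubiquitin ligase and serves other ligases too, at -0.97, -1.21 and -0.78 (mean -0.98, limma adjusted p = 0.0224). Next by p-value, and not past the threshold, were UBE2D1, a ubiquitin-conjugating enzyme, at 1.26 (limma adjusted p = 0.135), and the coactivator CREBBP at 0.29 (0.319). At 68 and 44 h none of the 14 passed, with medians of 0.05 and -0.01. Leaving out any 92 h replicate ended the ELOC call (limma adjusted p = 0.142, 0.133 and 0.0546).

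Of the HIF targets of glucose use, 21 of 23 passed the filter, and 19 of them had a mean below 0 at 92 h (18 of 20 without ALDOC), with a median of -0.65 and a range from -1.70 to 0.46. PGAM1, the phosphoglycerate mutase of glycolysis, was the only 1 past the threshold (-1.07, -1.01 and -0.76, mean -0.95, limma adjusted p = 0.0183). Larger falls did not pass. Examples, chosen after their values were seen, were PFKL (-1.27, -1.32 and -1.30, limma adjusted p = 0.254) and SLC16A3 (-1.61, -1.64 and -1.84, 0.241). Their SDs at 44 h, 1.72 and 2.11, enter the variance pooled over times. LDHA, lactate dehydrogenase A, was at -0.95, -0.93 and -1.09 (mean -0.99, limma adjusted p = 0.0737), outside the threshold. The aldolase gene ALDOC had the next p (0.165, limma adjusted), but its probe exceeded background in 13 of 18 channels of 20 h and in 0 of 6 of 92 h, so it had no measured 92 h ratio. At 68 h 18 of 21 were below 0 (median -0.20) and at 44 h 18 of 21 (median -0.47), with none past the threshold. At 44 h, replicate 3 weighed on this list, with ENO1, TPI1 and ALDOA, chosen after their values were seen, at -4.71, -4.21 and -3.55 there and at -0.37, 0.68 and -0.14 in replicate 2. Leaving out 92 h replicate 1 or 2 ended the PGAM1 call (limma adjusted p = 0.141 and 0.118).

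Of the other HIF targets, 31 of 38 passed the filter and none passed the threshold at any time, by limma. At 92 h 22 of 31 were below 0, with a median of -0.18 and a range from -1.49 to 0.98. Without EPO, above background in 0 of 6 channels of 92 h, 21 of 30 were below 0, with a median of -0.22. The smallest p-values were those of the adenosine receptor ADORA2B at 0.25 (limma adjusted p = 0.0728), the oxidoreductase ERO1A at -1.10 (0.0839) and the mitophagy receptor BNIP3L at -0.44 (0.0917). At 68 and 44 h the medians were -0.08 and -0.11. Of the genes for ADM processing and receptors, 3 of 7 passed the filter and none the threshold. They were the amidating enzyme PAM at 0.43 (limma adjusted p = 0.169), the scavenger receptor ACKR3 at 1.15 with 3.08 in replicate 2 alone (0.323), and the receptor subunit RAMP3, which exceeded background in 0 of 6 channels of 92 h (8 of 18 of 20 h) and so had no measured 92 h ratio.

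**Figure D5:**
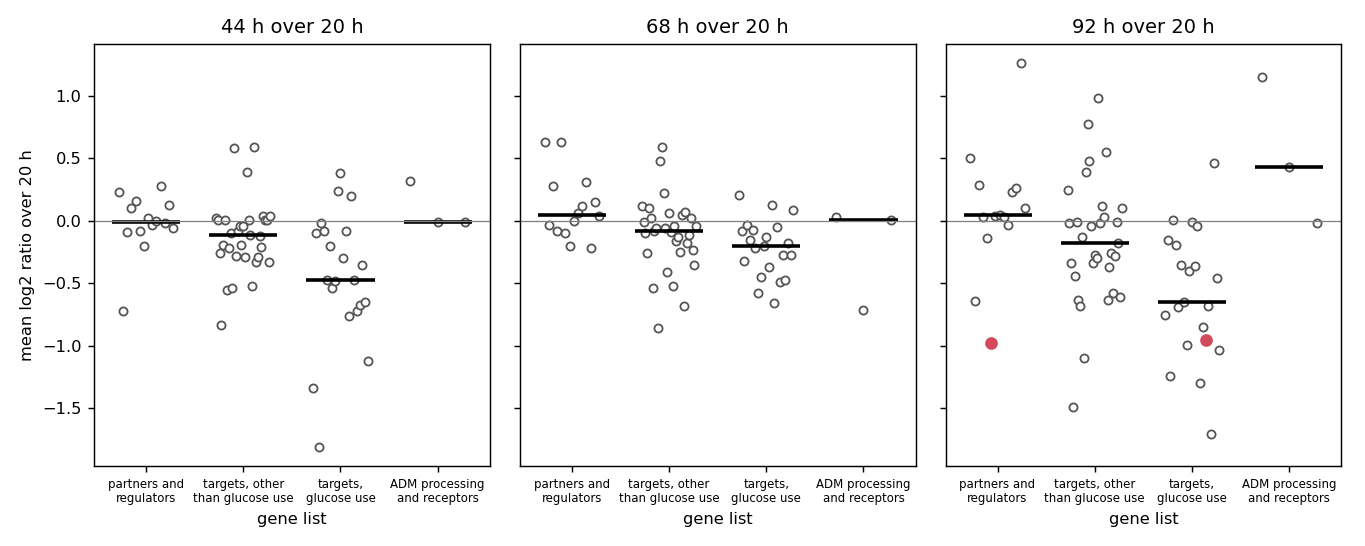
Mean log2 ratio over 20 h of each gene that passed the filter in 4 lists of the pathway, at 44, 68 and 92 h. Each circle is a gene, horizontal bars are list medians, and filled circles passed an adjusted p of 0.05 (ELOC and PGAM1 at 92 h). The targets of glucose use have medians of -0.47, -0.20 and -0.65 at the 3 times.

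A few markers of other cell types rose at 92 h beside these results. Of the theca and stroma markers 9 of 11 passed the filter, with a median log2 ratio of 0.05 and 4 of 9 below 0. Without CYP17A1 and PDGFRB, the 2 that exceeded background in no channel of 92 h, 2 of 7 were below 0, with a median of 0.57. INSL3, COL1A1 and TAGLN, on dim probes, read -0.09, -0.05 and 0.05. ACTA2 (0.57, limma adjusted p = 0.580) did not pass, nor did COL3A1, whose 0.93 came from replicate 2 (0.05, 2.78 and -0.03). PDGFRA rose (1.66, limma adjusted p = 0.0437), and MYH11 read 1.47 (limma adjusted p = 0.0120). MYH11 exceeded background in 8 of 18 channels of 20 h against 6 of 6 of 92 h, so it passed the filter through its coasted channels alone. Its ratio is therefore no exact difference and its p is given only for completeness. The mean log2 level of that list was 8.50 to 8.56 in the 20 h channels and 8.74 to 9.18 at 92 h, and DCN was above background on no array. Of the leukocyte markers 5 of 9 passed the filter, with a median of 0.05 and 2 of 5 below 0, and 1 rose, CD68 (0.93, limma adjusted p = 0.0465). CXCR4 (1.43, limma adjusted p = 0.0504) did not pass, and PTPRC, LAPTM5 and CD3E read 0.05, -0.03 and -0.02. Levels of the leukocyte list were 7.93 to 8.01 at 20 h and 8.07 to 8.39 at 92 h, with CSF1R and ITGB2 above background on no array. The cumulus and granulosa list ran at 12.03 to 12.37 in the 20 h channels and 11.47 to 12.13 at 92 h. None of its 12 genes was past the threshold at 92 h, 10 of 12 were below 0, and the median was -0.44. Without FOXL2, above background in 0 of 6 channels of 92 h, 9 of 11 were below 0, with a median of -0.52. None of the endothelial, oocyte and erythrocyte markers that passed the filter (5, 4 and 5 genes) was called at 92 h. The part of these cell types in the fall of EGLN3, ELOC and PGAM1 was not tested.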

How the data were processed

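Two-round amplified RNA was labelled chemically with Cy3 or Cy5, per the labels' protocols. The deposited scanner tables hold mean spot and background intensity per channel, neither corrected nor normalized, per the file headers; of the authors' own steps nothing is stated in the labels. A deposited series table holds log2 values that follow Cy5 over Cy3 of each array's raw intensities (r from 0.68 to 0.83, column medians from -0.04 to 0.02); its background correction and normalization are unknown, and it served as an alternative only. Spot intensities were corrected by normexp with an offset of 50, then by loess within each array (control spots had weight 0). Each ratio was oriented as longer time over 20 h. Arrays with the same time and replicate number in opposite orientations were averaged as a technical dye swap, which the labels do not state outright. A probe was above background if its signal exceeded that of the 153 negative controls by 2 SD over their mean, and was kept if so on at least 50% of the arrays of any time. Channel brightness is after loess and Aquantile scaling and compares samples for 1 probe, never probes with each other. Symbols were current for 20025 of 21790 named probes, updated for 1524 and unmatched for 241; the brightest kept probe stood for its gene. The tests were two-sided, with limma 3.58.1 in R 4.3.3, a coefficient per time over 9 values (6 residual and 1.13 prior degrees of freedom), and Benjamini-Hochberg adjustment over all genes. The pooled fit treats values that may share 20 h RNA as independent. The code was tested on simulated arrays, with planted changes far larger than the fall of EGLN3 and no shared 20 h RNA. That test therefore does not show how often changes of the size reported here are found.

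The members and all gene lists were chosen with earlier results of these data known. Text names all members, the genes of each list past 0.05 or else its 3 of smallest p, and the 5 genes most like a called member. Deviations of same-numbered 92 and 44 h replicates correlated with r of 0.36, 0.26 and 0.24, so a block on these numbers was run as an alternative. The difference, interval and p of 92 against 44 h in Results come from the fit without a block. For pairs with 68 h, r ran from -0.35 to -0.03. The number of arrays limits the precision. Alternatives are given in the closing section.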

Additional observations from a re-analysis of the deposited data

Results flagged for a closer look

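HIF1AN lay on opposite sides of 0 at 68 and 44 h: its 3 replicates were below 0 at 68 h (-0.02, -0.04 and -0.02) and above 0 at 44 h (0.04, 0.06 and 0.00 after rounding). The ratio at 68 h minus that at 44 h was -0.06, with an interval from -0.20 to 0.08, and the test of that difference did not pass (limma adjusted p = 0.999). By dye orientation, the 68 h arrays read 0.03 to 0.14 with the coasted RNA in Cy5 and -0.18 to -0.08 in Cy3. Groups of 3 replicates were not tested for outlying samples.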

How the results depend on the processing

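The number of members past the threshold at 92 h was 1, EGLN3. It was 0 with median centring, with scaling between arrays, with a trended and robust variance prior, with the 92 h values alone and with the replicate block over the 9 values. With the coasted RNA in Cy3 only it was 2 (EGLN3 and EGLN1), and a random slide block gave 4. The share of all genes past the threshold was not counted in any alternative setting of this section. The counts of members, F-test included, therefore cannot be set against other genes. The slide fits count the 18 arrays separately, so their p-values are too small: at 68 h the random block gave 2 members and the fixed block over the 44 and 68 h arrays 1, and at 44 h the random block gave 4, against 0 in each case. Leaving out 1 replicate at a time gave 0 to 1 at 92 h. The F-test over all times passed for 0 members, against 1 with probes above background on all arrays of a time, 1 with coasted RNA in Cy5 only and 2 in Cy3 only. The differences between longer times passed for 0 members in all settings run. The blocked fit of 92 against 44 h alone was chosen after seeing the data and gave EGLN3 a difference of -0.75 (limma adjusted p = 0.566), which changed no call. The EGLN3 ratio at 92 h was below 0 in 24 of 24 settings and past the threshold in 14, with limma adjusted p from 2.06e-07 (random slide block) to 0.180. A total of 589 member values were recomputed over 25 settings. Only EGLN3 at 92 h was past the threshold in the main fit, so the sign of a called value could be checked for it alone. Of the values not past it 35 changed sign, all with a reported size of 0.16 or less and none in EGLN3 or EGLN1. CA9 at 44 h, whose mean rounds to 0.00, also changed sign (-0.60 to 0.60). In all, 537 moved by less than 1 SD or kept their call, 31 moved by more, 10 lost a call and 11 gained one, 9 of those under the random slide block. The cause was not tested. PGAM1 and ELOC remained below 0 in 24 of 24 settings and were past the threshold in 20 and 18. Over these settings the genes past the threshold at 92 h numbered 0 to 16 in the list of glucose use, against 1. Among the partners and regulators they numbered 0 to 9, against 1. Here too the share of all genes was not counted, so these list counts show nothing particular to the lists. Low signal limits EPAS1, HIF1AN and ADM, high signal limits the HIF1A probe used by gene, and ARNT and VHL gave no measured ratio. The probes of BNIP3L, LDHA and PGAM1 were also bright (mean log2 brightness 14.93, 14.81 and 14.61, against 14.95 for HIF1A). Their ratios may be compressed too.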
